A study of Mus musculus with 12 samples.

Results

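Effector regulatory T cells are the activated fraction of this lineage, and 10 genes known as their regulators or markers were followed here: Prdm1, Irf4, Batf, Maf, Id2, Klrg1, Hopx, S100a4, S100a6 and Areg. The rule names them by symbol and uses no measured value, though earlier results of these data were known when they were chosen. Of the 10, 9 had a row in the deposited log2 value table, out of 19505 genes with a row, and Areg had no row named here. For each gene the brightest row was used. The samples were lymph node cells of female mice 4 to 8 weeks old, 6 labelled NOD and 6 labelled NOD.Drak2-/-, each array from a single mouse. NOD is the inbred strain that develops autoimmune diabetes spontaneously. The other mice share that background and lack Drak2, the kinase encoded by Stk17b. No treatment is given in the labels, and beyond the genotype name nothing on how Drak2 was removed was used here. The cells were sorted as CD4+ CD8- CD25+ CD45RBlo.

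Regulatory T cells leave a resting state when their antigen receptor is engaged. In that transition Irf4 and Batf, which bind DNA as partners at composite sites, are induced and are needed for the differentiated effector state, in which Prdm1 (Blimp-1) is expressed and limits proliferation. Maf, a basic leucine zipper factor, drives interleukin 10 and gut-associated programmes. Id2 blocks the E protein transcription factors by binding them without binding DNA. Klrg1 is a lectin-like inhibitory receptor of terminally differentiated lymphocytes, Hopx a homeodomain protein without DNA-binding activity, and S100a4 and S100a6 small calcium-binding proteins of activated and tissue-type cells. Areg encodes a growth factor of the epidermal growth factor family that such cells release for tissue repair.

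Array medians over all genes lay between 5.22 and 5.34 on the log2 scale in NOD and between 5.18 and 5.24 in NOD.Drak2-/-. Stk17b lay between 9.97 and 10.80 over the 12 arrays, with a log2 difference of -0.27 (limma adjusted p = 0.517), so its row does not separate the genotypes. Cd4 lay between 9.32 and 10.15 and Ikzf2, a regulatory T cell transcription factor, between 9.24 and 9.94. Il2ra, which encodes CD25, lay between 4.19 and 5.49, below 5.87, the mean of the brightest of 23 background rows (probes with no genomic target). Foxp3 had no row named here. Thus 7 of 8 measured CD4 T cell and regulatory T cell markers were above background, and those 2 defining markers cannot check the label. In bulk RNA, fewer cells of a type and less RNA per cell cannot be told apart.

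None of the 9 genes differed between the genotypes at an adjusted p under 0.05. Batf and Maf had higher means in NOD.Drak2-/-, Hopx and Id2 lower means, and Irf4, Klrg1, S100a4 and S100a6 means within 0.11 of each other on the log2 scale. In limma 0 of 9 members passed over all genes, where 0.0205% of all 19505 genes did (4 genes). At an unadjusted p under 0.05 there were 2 of 9, Batf and Hopx, in opposite directions, where 9.43% of all genes met that mark. A positive difference was found for 6 of 9 members against 45.9% of all genes, and the median difference was 0.05 against -0.02 over all genes. When the arrays were centred on their medians, the median difference of the members was 0.12, with Irf4 at 0.125 and S100a4 at 0.119, and 0 members passed. For 0 of 9 members did the values of one genotype lie wholly apart from those of the other, against 0.513% of all genes. All 9 had means above the brightest background row. With so few members none of these shares sets them apart.

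**Figure D1:**
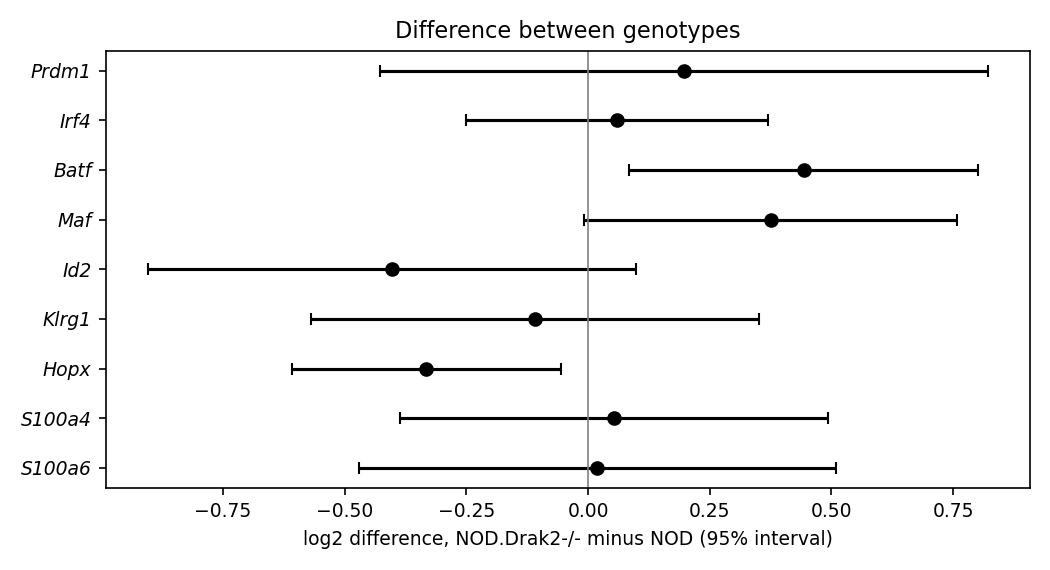
Log2 difference of NOD.Drak2-/- minus NOD for each of the 9 measured genes, with points for the limma estimate and bars for its 95% interval (6 arrays per genotype). The intervals of Batf and Hopx lie to either side of 0 and the other 7 include it, before any adjustment for the number of genes tested.

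Among the transcription factors, Batf had the largest difference of the 9. Its log2 value had a lowest, median and highest of 8.69, 9.02 and 9.60 in NOD. In NOD.Drak2-/- these were 9.05, 9.64 and 9.82. Of the NOD.Drak2-/- arrays 3 of 6 were above all NOD arrays and 5 of 6 above the NOD mean, and the ranges overlapped. The log2 difference was 0.44 (SE 0.17, 95% interval 0.08 to 0.80, a ratio of 1.36), with an adjusted p of 0.485. By exact permutation of the genotype labels, two-sided, p was 0.039. Beside this, the mean of the bacterial hybridization control rows, which report on the array handling and not on the cells, lay between 9.12 and 9.72 in NOD and between 8.95 and 10.71 in NOD.Drak2-/-. Within NOD.Drak2-/- these controls gave Batf the same rank order (Pearson r = 0.988, exact p = 0.00139; rho = 1, exact p = 0.00278; n = 6), and within NOD they did not (r = 0.223, exact p = 0.685; rho = 0.143, exact p = 0.803; n = 6). When the control mean entered the model, a setting chosen after seeing the data, the difference of Batf was 0.23 (adjusted p = 1).

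Maf followed the same arrays. Its lowest, median and highest log2 values were 6.32, 6.55 and 7.12 in NOD and 6.44, 7.14 and 7.38 in NOD.Drak2-/-. Replicates 1, 2 and 5 of NOD.Drak2-/- were above all NOD arrays, and the same 3 arrays held the highest Batf values of all 12. Maf differed by 0.38 on the log2 scale (SE 0.18, 95% interval -0.01 to 0.76), with an adjusted p of 0.535 and an exact permutation p of 0.0844. When the control mean entered the model it was 0.16 (adjusted p = 1).

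Irf4, the partner of Batf, did not follow them. Its lowest, median and highest log2 values were 7.44, 7.92 and 8.00 in NOD and 7.58, 7.87 and 8.45 in NOD.Drak2-/-. Replicate 1 of NOD.Drak2-/- was the highest and replicate 3 of NOD the lowest, and the other arrays lay among each other. The log2 difference was 0.06 (SE 0.15, 95% interval -0.25 to 0.37, adjusted p = 0.91), an interval that spans ratios of 0.841 to 1.29. Without NOD replicate 3 the difference was -0.02, and without NOD.Drak2-/- replicate 1 it was -0.05, so its sign rests on single arrays.

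Prdm1 had the widest spread of the 9 in NOD (SD 0.66) and, with an SD of 0.57, was below only S100a6 and Id2 in NOD.Drak2-/-. In NOD its lowest, median and highest log2 values were 5.87, 6.36 and 7.44, and in NOD.Drak2-/- they were 5.90, 6.90 and 7.46. In NOD replicates 4 and 6 stood at 7.44 and 7.39 while the other 4 lay between 5.87 and 6.39, and in NOD.Drak2-/- the values were spread over the same range. The log2 difference was 0.20 with an SE of 0.29, larger than that of 98.4% of all genes (95% interval -0.43 to 0.82, adjusted p = 0.847, exact permutation p = 0.55). Ratios between 0.743 and 1.77 lie inside the interval, so a moderate change could not be detected for Prdm1. Replicate 2 of NOD.Drak2-/- (5.90) lay below its own array's brightest background row (6.77).

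Id2, the E protein inhibitor, had a lower mean in NOD.Drak2-/-. Its lowest, median and highest log2 values were 6.92, 7.44 and 7.90 in NOD and 5.92, 7.26 and 7.40 in NOD.Drak2-/-. Of the NOD.Drak2-/- arrays 2 were below all NOD arrays, replicate 5 (6.72) and replicate 2, which was also below its own brightest background row, and the other 4 lay between 7.21 and 7.40, inside the NOD range. Id2 differed by -0.40 on the log2 scale (SE 0.24, 95% interval -0.90 to 0.10, adjusted p = 0.601, exact permutation p = 0.19). Without NOD.Drak2-/- replicate 2 it was -0.19 (adjusted p = 0.784), and -0.16 (adjusted p = 1) when the hybridization control mean entered the model.

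**Figure D2:**
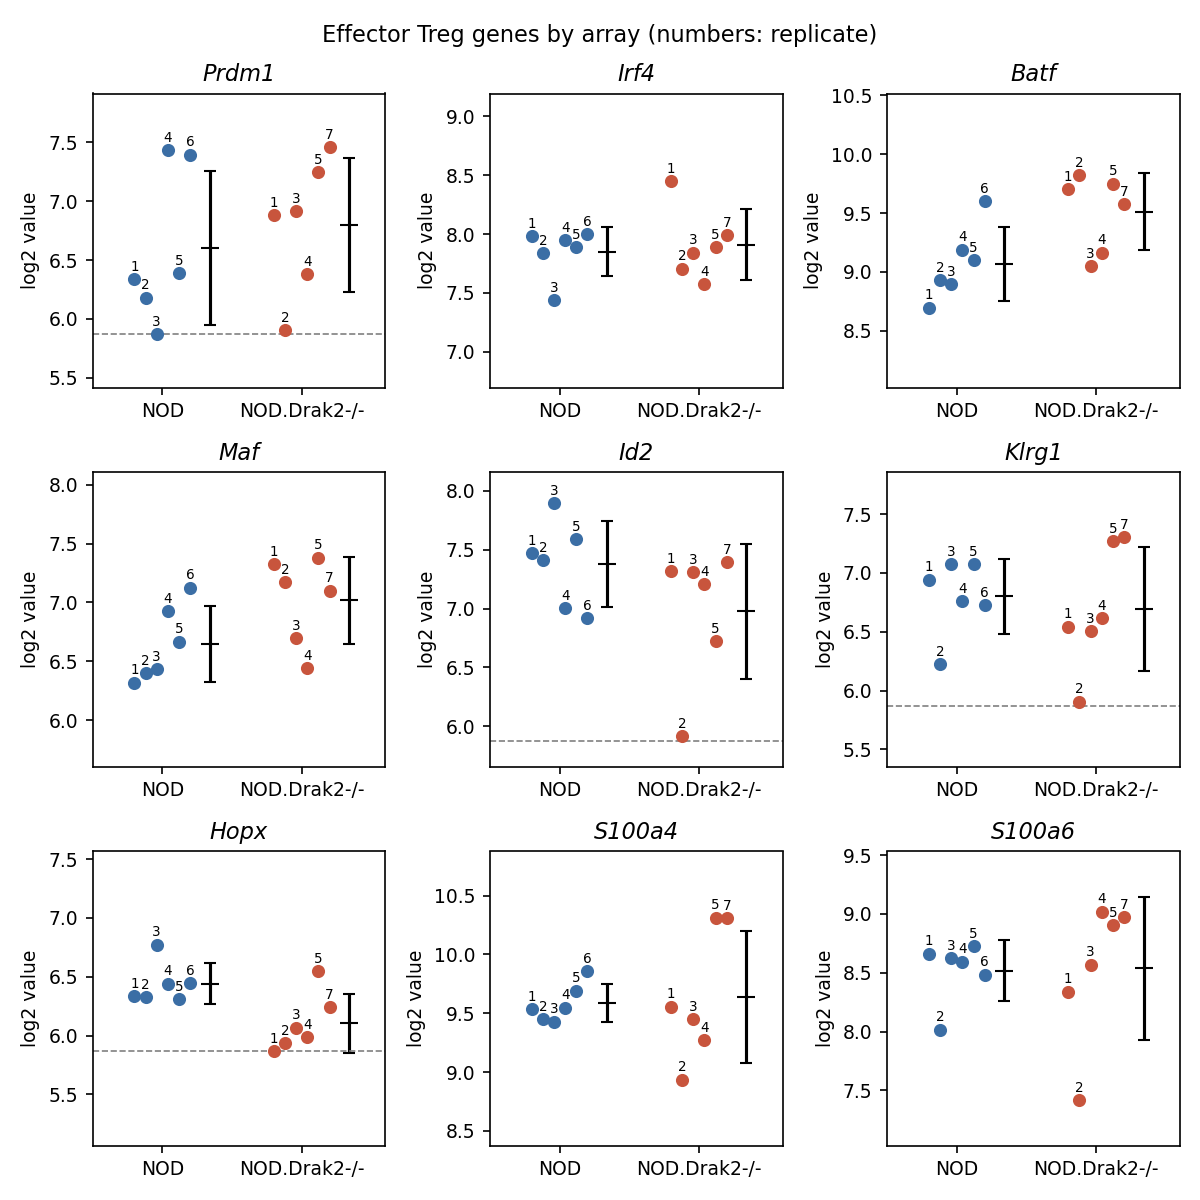
Log2 values of the 9 genes on each of 12 arrays (points, numbered by replicate; blue NOD, red NOD.Drak2-/-), with mean and SD (n = 6) to the right of each group. Every panel spans the same height in log2 units, and the dashed line marks the brightest background row (5.87) where a gene comes near it. Groups overlap in all 9 panels, and NOD.Drak2-/- replicate 2 is the lowest of its genotype for Prdm1, Id2, Klrg1, S100a4 and S100a6 while it is the highest for Batf.

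Of the surface and marker genes, Hopx gave the difference with the smallest error relative to its size. Its lowest, median and highest log2 values were 6.31, 6.39 and 6.77 in NOD and 5.87, 6.03 and 6.55 in NOD.Drak2-/-. In NOD.Drak2-/- 5 of 6 arrays were below every NOD array, and the exception, replicate 5 (6.55), was above all NOD arrays but 1. The log2 difference was -0.33 (SE 0.13, 95% interval -0.61 to -0.06, a ratio of 0.794), with an adjusted p of 0.494 and an exact permutation p of 0.0325. The mean of Hopx over all arrays was only 0.40 above the brightest background row, and 10 of 12 arrays were above their own, so the difference was measured close to background. It was -0.38 (adjusted p = 1) when the control mean entered the model.

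Klrg1 showed no difference larger than the spread between mice. Its lowest, median and highest log2 values were 6.22, 6.85 and 7.08 in NOD and 5.91, 6.58 and 7.30 in NOD.Drak2-/-. Replicates 5 and 7 of NOD.Drak2-/- were above all NOD arrays and replicate 2 below all of them. That replicate 2 value (5.91) also lay below its own array's brightest background row (6.77), and replicate 1 was only 0.02 above its own. The log2 difference was -0.11 (SE 0.22, 95% interval -0.57 to 0.35, adjusted p = 0.889), and it turned to 0.05 without NOD.Drak2-/- replicate 2.

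S100a4 and S100a6 had nearly equal means in the genotypes but a wider spread in NOD.Drak2-/-, which for S100a6 rested on 1 array. S100a4 had a lowest, median and highest log2 value of 9.43, 9.54 and 9.86 in NOD and of 8.94, 9.50 and 10.31 in NOD.Drak2-/-. Replicates 5 and 7 of NOD.Drak2-/- (10.31 and 10.30) were above all NOD arrays, and replicates 2 and 4 (8.94 and 9.27) below all of them. S100a4 differed by 0.05 on the log2 scale (SE 0.21, 95% interval -0.39 to 0.49, adjusted p = 0.947). The SD was 0.16 in NOD and 0.56 in NOD.Drak2-/- (n = 6 each), a ratio of 3.45, and 1.25% of the 8128 genes above background had a larger one. Without NOD.Drak2-/- replicate 2 the SD of S100a4 in that genotype was 0.49 (n = 5). S100a6 had a lowest, median and highest log2 value of 8.02, 8.61 and 8.72 in NOD and of 7.41, 8.74 and 9.02 in NOD.Drak2-/-. Its log2 difference was 0.02 (SE 0.23, 95% interval -0.47 to 0.51, adjusted p = 0.983) and its sign turned in several settings. The SD of S100a6 was 0.26 in NOD and 0.61 in NOD.Drak2-/-, and 0.29 there without replicate 2 (n = 5). The spread was wider in NOD.Drak2-/- for 8 of 9 members, all but Prdm1, as it was for 55.2% of genes above background. Without NOD.Drak2-/- replicate 2 the SD of Id2 there was 0.27, below that in NOD (0.37). The difference in spread was not tested.

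How the members varied together over mice was described by Pearson r and Spearman rho for all 36 pairs over the 12 arrays, with 100000 permutations and Benjamini-Hochberg adjustment over the 36 pairs. By r 5 pairs passed an adjusted p of 0.05 and by rho 2 pairs. The pairs that passed by r were Batf with Maf, Batf against Id2, Klrg1 with each S100 gene, and Prdm1 with S100a4. They do not form separate groups. Prdm1 with Maf had r = 0.587 (adjusted p = 0.192), with 0.900 within NOD (exact p = 0.0306) and 0.289 within NOD.Drak2-/- (exact p = 0.596). Batf with S100a4 had r = 0.278 (adjusted p = 0.551), with 0.821 within NOD (exact p = 0.0403) and 0.199 within NOD.Drak2-/- (exact p = 0.715). Irf4 and Hopx were in no pair that passed.

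**Figure D3:**
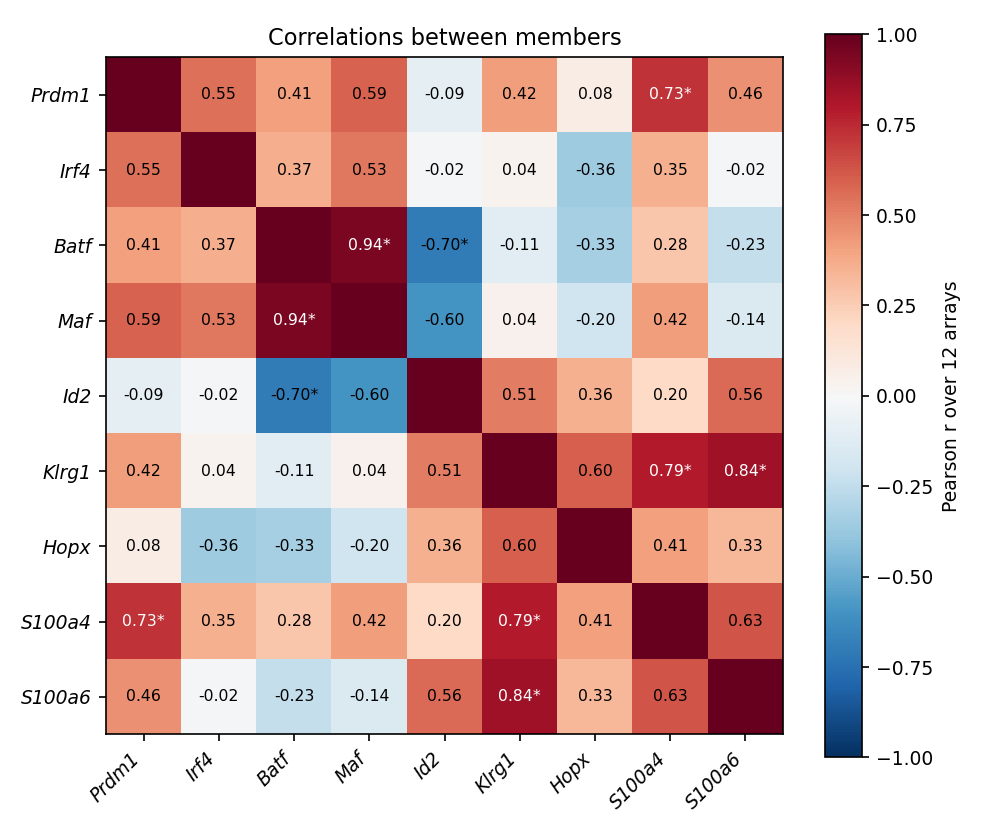
Pearson r between each pair of the 9 genes over 12 arrays, with red for positive and blue for negative values; an asterisk marks the 5 pairs with an adjusted p under 0.05. The strongest cell is Batf with Maf (0.94) and the strongest negative cell Batf with Id2 (-0.70).

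Batf and Maf were the closest pair. Pearson r was 0.944 (permutation p = 1e-05, the smallest that the permutations can give, adjusted p = 0.00036) and rho 0.944 (adjusted p = 0.00036). Within NOD r was 0.958 (exact p = 0.00278, n = 6) and within NOD.Drak2-/- 0.906 (exact p = 0.0319, n = 6), so the relation is found in each genotype. Without the 2 arrays farthest from the median of Batf r was 0.939, without the 2 farthest from that of Maf it was 0.925, and without any 1 array it lay between 0.933 and 0.966. Of 8127 genes above background other than Batf itself, Maf ranked 8 by the size of r with Batf. The hybridization controls moved with both genes over the 12 arrays (r = 0.791 with Batf, permutation p = 0.00227, adjusted p = 0.0493 over 54 relations; r = 0.75 with Maf, permutation p = 0.00517, adjusted p = 0.0698). By rho the values were 0.727 and 0.72, each with an adjusted p of 0.115. Without the 2 arrays farthest from the median of the controls r was 0.636 and 0.659. Within NOD r of the controls with Maf was 0.27 (exact p = 0.582; rho = 0.429, exact p = 0.419; n = 6). Within NOD.Drak2-/- it was 0.867 (exact p = 0.0347; rho = 0.771, exact p = 0.103; n = 6). The controls varied less in NOD (SD 0.21) than in NOD.Drak2-/- (SD 0.70). Their part in the relation of Batf and Maf was not tested.

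Batf and Id2 ran in opposite directions, with r = -0.698 (permutation p = 0.00543, adjusted p = 0.0391) and rho = -0.797 (adjusted p = 0.0493). Without the 2 arrays farthest from the median of Batf r was -0.504. Within NOD r was -0.718 (exact p = 0.0944) and within NOD.Drak2-/- -0.574 (exact p = 0.181), n = 6 each, neither of which passes alone. The call was lost in 9 of the 12 recomputations that left out 1 array and on centring the arrays on their medians. Of the 8127 other genes, 16.8% had a larger r with Batf by size, so this relation is not unusual among expressed genes.

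For Batf and Id2, the pair that ran in opposite directions, the 250 bases before the RefSeq start are shown (GRCm38.p6), in the direction of transcription, because E boxes, the letters that the partners of Id2 bind, can be looked for in them. The Batf window is chr12:85686470-85686719 on the plus strand and the Id2 window chr12:25096093-25096342 on the minus strand. Capitals mark CANNTG, the E box that E proteins bind, which reads the same on both strands.
Batf: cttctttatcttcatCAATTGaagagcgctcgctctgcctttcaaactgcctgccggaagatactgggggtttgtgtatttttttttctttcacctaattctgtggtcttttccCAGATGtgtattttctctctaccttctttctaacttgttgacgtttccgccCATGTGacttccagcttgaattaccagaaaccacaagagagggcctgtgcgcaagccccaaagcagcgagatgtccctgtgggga
Id2: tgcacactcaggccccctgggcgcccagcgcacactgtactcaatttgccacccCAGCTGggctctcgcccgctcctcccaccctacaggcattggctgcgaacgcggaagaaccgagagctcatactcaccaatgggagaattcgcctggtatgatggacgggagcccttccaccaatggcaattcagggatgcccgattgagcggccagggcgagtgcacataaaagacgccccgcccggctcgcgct
The Batf window held 3 E boxes and the Id2 window 1. At least 1 was found in 66.2% of the 32851 promoter windows of the same length and at least 3 in 12.2%, so a match is a description of letters and not a site.

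The Prdm1 window is shown because Batf and Irf4 are known to act on AP-1 type elements and it was the only 1 of 9 member windows to hold TGANTCA. It is chr10:44458749-44458998 on the minus strand of GRCm38.p6, with capitals for TGANTCA, which reads the same on both strands. The window lies inside the annotated span of the gene (44437174 to 44528558), so it precedes an internal start and not the far end of that span.
Prdm1: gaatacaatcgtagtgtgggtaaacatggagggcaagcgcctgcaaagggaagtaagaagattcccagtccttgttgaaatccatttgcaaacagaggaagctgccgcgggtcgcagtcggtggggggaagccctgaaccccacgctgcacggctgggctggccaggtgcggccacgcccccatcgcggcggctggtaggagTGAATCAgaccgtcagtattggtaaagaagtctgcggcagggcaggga
This motif was found in 6.75% of all windows. Over the 12 arrays Prdm1 correlated with Batf at r = 0.413 (adjusted p = 0.366; rho = 0.392, adjusted p = 0.579) and with Irf4 at r = 0.548 (adjusted p = 0.213; rho = 0.692, adjusted p = 0.0775), neither of which passed.

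The other pairs that passed by r each held an S100 gene. Klrg1 with S100a6 gave r = 0.844 (permutation p = 0.0004, adjusted p = 0.0072) and rho = 0.755 (adjusted p = 0.055). Within NOD r was 0.958 (exact p = 0.00833) and within NOD.Drak2-/- 0.84 (exact p = 0.0292), n = 6 each. Without the 2 arrays farthest from the median of Klrg1 r was 0.666, and without the 2 farthest from that of S100a6 it was 0.548. Klrg1 with S100a4 gave r = 0.794 (permutation p = 0.00199, adjusted p = 0.0239) and rho = 0.629 (adjusted p = 0.142). For that pair r was 0.965 within NOD.Drak2-/- (exact p = 0.0139) and 0.143 within NOD (exact p = 0.758), n = 6 each, and the difference between the genotypes was not tested. Without the 2 arrays farthest from the median r was 0.586 by Klrg1 and 0.659 by S100a4. S100a4 and S100a6 lie in the S100 gene cluster with S100a5 between them, and their own r was 0.629 (permutation p = 0.0309, adjusted p = 0.159; rho = 0.315, adjusted p = 0.581), which did not pass. Prdm1 with S100a4 gave r = 0.726 (permutation p = 0.00486, adjusted p = 0.0391) and rho = 0.741 (adjusted p = 0.055), with r of 0.747 and 0.627 without the 2 arrays farthest in Prdm1 and in S100a4. Within NOD that r was 0.65 (exact p = 0.118) and within NOD.Drak2-/- 0.934 (exact p = 0.0111), n = 6 each.

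All 3 of these positive relations missed the threshold without NOD.Drak2-/- replicate 2. In its absence r was 0.726 for Klrg1 with S100a6 (adjusted p = 0.0783), 0.694 for Klrg1 with S100a4 (adjusted p = 0.0783) and 0.653 for Prdm1 with S100a4 (adjusted p = 0.105), and only Batf with Maf still passed. The call of Klrg1 with S100a4 was also lost without NOD.Drak2-/- replicate 5 or 7, and that of Klrg1 with S100a6 without NOD replicate 2. The call of Prdm1 with S100a4 was lost in 9 of the 12 recomputations without 1 array, those that left out replicates 1, 2, 3 and 6 of NOD and replicates 1, 2, 4, 5 and 7 of NOD.Drak2-/-. Heat shock and dissociation genes, which handling can raise though its part here was not tested, ran against S100a6 (r = -0.773, permutation p = 0.00089, adjusted p = 0.0481; rho = -0.902, adjusted p = 0.0081) and averaged 7.79 to 8.21 in NOD.Drak2-/- and 7.84 to 8.11 in NOD. Within NOD.Drak2-/- r was -0.828 (exact p = 0.00833) and rho -0.829 (exact p = 0.0583), and within NOD r was -0.51 (exact p = 0.317) and rho -0.886 (exact p = 0.0333), n = 6 each. Without the 2 arrays farthest from the list's median r over the remaining arrays was -0.692. For Klrg1 with that list r was -0.716 (permutation p = 0.00865, adjusted p = 0.0934) and rho -0.727 (adjusted p = 0.115), which did not pass, and r was -0.568 without the 2 farthest arrays. Within NOD its r was -0.527 (exact p = 0.278) and rho -0.714 (exact p = 0.136), and within NOD.Drak2-/- r was -0.774 (exact p = 0.0736) and rho -0.771 (exact p = 0.103), n = 6 each. The background row that is brightest on average also ran against S100a6 (r = -0.76, permutation p = 0.00274, adjusted p = 0.0493; rho = -0.783, adjusted p = 0.105; r = -0.794 without its 2 farthest arrays). The part of these measures in the relations between members was not tested.

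**Figure D4:**
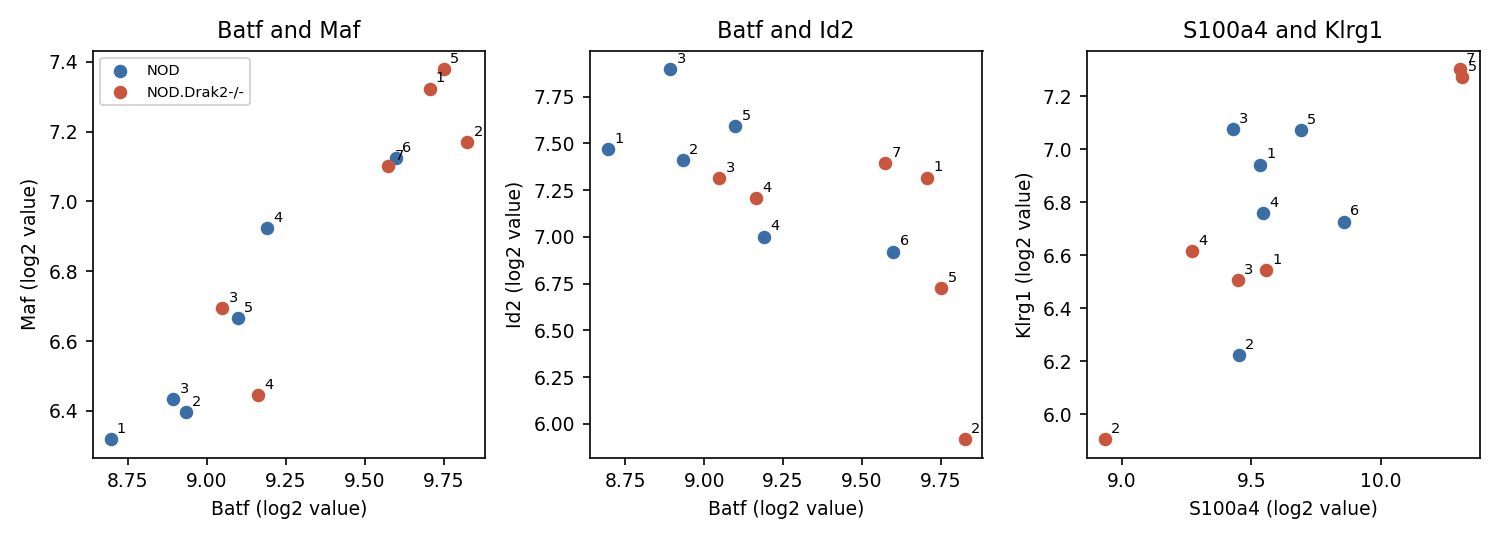
Log2 values of Maf against Batf, Id2 against Batf, and Klrg1 against S100a4 on the 12 arrays (blue NOD, red NOD.Drak2-/-, numbers for replicates). Maf rises with Batf in both colours, whereas replicate 2 of NOD.Drak2-/- is the lowest point for Id2 and for Klrg1 and S100a4.

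Taking all 9 members, the mean log2 value per array ran from 7.42 to 7.84 in NOD and from 7.19 to 8.04 in NOD.Drak2-/-. NOD.Drak2-/- replicate 2 was the lowest of all 12 and NOD.Drak2-/- replicate 7 the highest. Each member is itself part of that mean, which raises its r, and more so for a member with a wide spread. S100a4 followed that mean best (r = 0.933 of deviations from the genotype means) and Batf least (r = 0.296). Of the 8128 genes above background, members aside, the closest to it were Polrmt, the mitochondrial RNA polymerase (r = 0.929), Chsy1, a chondroitin synthase (0.907), Itgae, the integrin chain CD103 of tissue-type regulatory T cells (0.895), the granzyme gene Gzmb (0.874) and the vesicle syntaxin Stx6 (0.87). These r values are over 12 arrays, were picked as the highest and carry no test. Gzmb had a log2 difference of 0.66 (SE 0.32, adjusted p = 0.535) and Itgae one of 0.06 (SE 0.19, adjusted p = 0.934).

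Limma passed 0 of 31 measured genes of a wider effector list over all genes. Of them 3 had an unadjusted p under 0.05 (2 higher and 1 lower in NOD.Drak2-/-), where 9.43% of all genes met that mark, and the median difference was -0.00. Nfil3, a leucine zipper factor, had a log2 value of 8.53 ± 0.25 in NOD and 7.91 ± 0.45 in NOD.Drak2-/- (SD, n = 6; difference -0.61, adjusted p = 0.469), and Glrx, a glutaredoxin, differed by 0.51 (adjusted p = 0.495). Of 18 measured resting genes, which effector cells lose, 0 passed and 3 were at an unadjusted p under 0.05 (2 higher and 1 lower in NOD.Drak2-/-), against the same 9.43%. A positive difference was found for 12 and a negative one for 6, where 45.9% of all genes had a positive one. The median was 0.08, and these shares were not tested. The 2 smallest p-values were those of Il7r, the interleukin 7 receptor, which differed by 0.54, and the transcription factor gene Myb, which differed by 0.42, each with an adjusted p of 0.469.

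Relatives of the members gave 0 calls over all genes as well. Of 19 measured partners and relatives of Batf, Irf4 and Maf, 4 were at an unadjusted p under 0.05, where 9.43% of all genes were. The counts in these short lists were not tested against that share. Irf9, the interferon factor subunit, differed by 0.46 (adjusted p = 0.413), and Irf5, in the background range, by -0.67 (adjusted p = 0.469). Of the 6 Id and E protein genes 2 were at that mark, Id4 (-0.38, adjusted p = 0.471) and Id1 (-0.31, adjusted p = 0.517), neither above background. Of 15 genes named for the S100 family 4 were above background, and the 2 smallest p-values belonged to S100a3 (-0.28, adjusted p = 0.517) and S100a16 (-0.41, adjusted p = 0.517), both below it. Of the 10 ligands and receptors of the epidermal growth factor family, to which Areg belongs, 0 were above background, with Epgn at -0.32 (adjusted p = 0.564) and Tgfa at 0.22 (adjusted p = 0.688). Of 11 measured lectin-like receptors related to Klrg1 only 1 was above background, with Klre1 at 0.32 (adjusted p = 0.517) and Klri2 at -0.20 (adjusted p = 0.627). Of 6 further Prdm genes also 1 was, with Prdm9 at 0.42 (adjusted p = 0.47) and Prdm2 at 0.68 (adjusted p = 0.567).

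Several members are also expressed by other cells, so markers of these were read beside them. Of 9 measured B cell markers 1 was above background, Cd79b (5.89 in NOD and 6.37 in NOD.Drak2-/-, adjusted p = 0.436). Blk, in the background range, went the other way (5.50 and 5.20, adjusted p = 0.481). The B cell list mean ran from 4.86 to 5.17 in NOD and from 4.72 to 5.54 in NOD.Drak2-/-, highest in replicate 2. Of 10 myeloid and dendritic markers, with Csf1r at 0.55 (adjusted p = 0.469) and Siglech at -0.27 (adjusted p = 0.517), 0 were above background (list means 3.92 to 4.25 and 4.03 to 4.41). Of 5 NK cell markers 2 were, Nkg7, a granule gene that T cells also express (8.20 and 7.53, adjusted p = 0.429), and Eomes (5.84 and 6.26, adjusted p = 0.517). Of 9 markers of type 2 innate lymphoid cells, mast cells and basophils, which can express Areg, Klrg1 or Id2, only 2 were above background. All 9 had a negative difference (median -0.22, list means 4.48 to 4.93 and 4.33 to 4.52), where 45.9% of all genes had a positive one. Most of these rows lay in the background range, and whether such cells differed in number was not tested. Of the 3 CD8 T cell markers 1 was above background, Cd8b1 (7.27 in NOD and 7.45 in NOD.Drak2-/-, adjusted p = 0.661), though the cells were sorted as CD8-. Cd8a lay below it (5.02 and 5.05). All 3 had a positive difference, and whether CD8 T cells differed in number was not tested. Of 5 plasma cell markers 0 were above background, and of 9 stromal and endothelial markers 3. With the B cell or the myeloid mean as a covariate 0 members passed, and the difference of Batf was 0.44 and 0.46.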

How the data were processed

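Expression in sorted lymph node regulatory T cells was measured on 12 one-colour arrays, 6 per genotype, from 125 ng of RNA per the labels' protocols. The authors deposited log2 values made, per the submitters' processing notes, with RMA and oligo. For these the sources used here name neither versions nor a genome build. Of 29129 rows, 19572 had 1 gene symbol, and the brightest row per gene left 19505 genes. Promoter windows came from RefSeq (GRCm38.p6), which held 8 of the 10 members in 9 entries.

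NOD.Drak2-/- was compared with NOD with limma 3.58.1 in R 4.3.3 (lmFit, eBayes, no covariate), with Benjamini-Hochberg adjustment over all 19505 genes and a threshold of 0.05. Single genes were also compared by a two-sided exact permutation test (smallest possible p 0.00216), with scipy 1.17.1. No filter on dim genes was applied. Arrays give no counts, so their number limits the precision. On simulated data for this comparison and 19505 genes, the limma step recovered 32% of genes at a log2 difference of 0.5 and 92% at 1. The simulation changed many more genes than passed in the real comparison, which makes the adjustment less strict. These rates are therefore likely too high for the real data, and more so for members with a large SE.

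The members and lists were chosen with earlier results of these data known. The genes to be named were all members, of each list those past the threshold or else the 2 smallest p-values, the 5 genes closest to the members' mean, and Stk17b, Cd4 and Il2ra. For the heat shock list and several cell marker lists, not all genes so picked are named above. Ikzf2 was added after its values were seen. Alternatives were a replicate block, each array left out, 2 normalizations, a filter on dim genes, another variance moderation, the mean of all rows per gene and 3 covariates. Those for correlations and the hybridization controls were chosen after seeing the data. Replicate numbers 1 to 5 are shared by the genotypes, but the labels give no pairing. Deviations of same-numbered arrays correlated between -0.18 and 0.09. That shows no strong shared shift over all genes but cannot exclude a pairing, so the replicate block was kept as an alternative.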

Additional observations from a re-analysis of the deposited data

Results flagged for a closer look

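In 3 of the 18 sets of 6 values (9 genes in each genotype), 1 array lay far from the others by Dixon's ratio of gap to range, which chance gives in about 1 set in 20. Irf4 was low in NOD replicate 3, at 7.44, with the next array at 7.84 and the highest at 8.00. Hopx was high in the same array, at 6.77, with the next at 6.45 and the lowest at 6.31. S100a6 was low in NOD replicate 2, at 8.02, with the next at 8.48 and the highest at 8.72.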

How the results depend on the processing

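In all 22 alternatives 0 members passed in limma, the count with a positive difference stayed between 4 and 7 of 9, and the median difference between -0.07 and 0.19. Prdm1, Batf, Maf, Id2 and Hopx kept the sign of their difference in all 22, with Batf between 0.23 and 0.55 and Maf between 0.16 and 0.49, both lowest with the hybridization controls as covariate. The filter on dim genes, the other variance moderation and the mean of all rows per gene left every member's difference unchanged, so those settings could not turn a sign. The counts over all 19505 genes were 4 as reported, 0 with the replicate block, 1 with the B cell or the myeloid covariate, 2 with the hybridization controls, and 1 to 2 without 1 array. Signs turned for S100a6 (-0.0756 with the replicate block, -0.0352 with quantile normalization, -0.0448 with the B cell covariate and -0.0812 to 0.243 without 1 array), S100a4 (-0.0253 with the replicate block and -0.0814 to 0.194 without 1 array), Irf4 (-0.0483 to 0.126 without 1 array) and Klrg1 (-0.231 to 0.0477 without 1 array). The cause was not tested. Same-numbered arrays are not known to share anything, and the replicate block passed 0 members. Without 1 array 1 to 5 pairs of members passed, 1 of them without NOD.Drak2-/- replicate 2. Batf with Maf passed in all 14 recomputations, Klrg1 with S100a6 in 12, Klrg1 with S100a4 in 11, and the other 2 pairs in 4 each. With 6 arrays per genotype, differences near 0.5 are mostly not detected over all genes.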
